A study of Mus musculus with 13 samples.

Results

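The genes described here are 9 homeobox genes, Dlx1, Dlx2, Dlx5, Dlx6, Msx1, Msx2, Alx1, Alx4 and Prrx1, in primary mouse embryonic fibroblasts (MEFs) and in lines that arose from them by spontaneous immortalization. They were chosen by symbol, and all 9 were found among the 55487 genes of the count tables. MEFs are mixed mesenchymal cultures from embryos. On serial passage they enter senescence, and rare cells that grow out found immortal lines. The 13 poly-A RNA-seq libraries fall into 4 groups. Wild-type (WT) MEFs gave 3 primary libraries, from clones 3, 4 and 5, and 3 immortalized lines from the same clones. MEFs labelled Prkd3-/- gave 3 primary libraries, from clones 13, 14 and 15, and 4 immortalized lines, of which 13 and 13a share clone 13. Every group was grown in medium with 10% fetal calf serum, the immortalized lines passed through a phase in 20% serum after senescence, and the labels name no other agent that differs between groups. Neither the Prkd3 allele nor the embryonic age is given in the sources used here, and each immortalized library is 1 line, so a value may belong to that line alone.

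Homeobox genes encode transcription factors that bind DNA through a homeodomain, and the members of these families pattern the face, skull, teeth and limbs. Dlx genes lie in pairs that share enhancers. Dlx2 and Dlx1 act in branchial arch mesenchyme and Dlx5 and Dlx6 in the lower jaw and limb, while all of them also act in GABAergic forebrain neurons. Msx1 and Msx2 are targets of bone morphogenetic protein (BMP) signalling and are usually described as repressors that keep mesenchyme undifferentiated. Alx1 and Alx4 shape the frontonasal region, Alx4 also the front of the limb bud, and Prrx1 is a broad marker and regulator of limb and facial mesenchyme.

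In GRCm38 coordinates, Dlx1 (ENSMUSG00000041911) lies on chromosome 2 at 71528113 to 71533981 on the plus strand and Dlx2 (ENSMUSG00000023391) at 71543408 to 71546754 on the minus strand, 9426 bases apart and pointing at each other. Dlx6 (ENSMUSG00000029754) lies on chromosome 6 at 6863334 to 6868568 on the plus strand, and Dlx5 (ENSMUSG00000029755) faces it at 6877805 to 6882085 on the minus strand, 9236 bases away. Msx1 (ENSMUSG00000048450) is on chromosome 5 at 37820485 to 37824583, Msx2 (ENSMUSG00000021469) on chromosome 13 at 53466884 to 53473074, Alx1 (ENSMUSG00000036602) on chromosome 10 at 102998707 to 103030215 and Prrx1 (ENSMUSG00000026586) on chromosome 1 at 163245119 to 163313710, all on the minus strand. Alx4 (ENSMUSG00000040310) is on chromosome 2 at 93642384 to 93681339 on the plus strand. The antisense transcript Dlx1as overlaps 6.2% of the exon bases of Dlx1, and the other overlaps are 4.4% of Dlx6 and 4.2% of Alx1. The WT counting ignored strand and counted a pair for every gene it overlapped, so reads from these stretches cannot be assigned to 1 of the genes.

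RefSeq windows upstream of the start, for build GRCm38.p6, were found for 5 of the 9 genes and not for Dlx5, Dlx6, Alx1 and Alx4. In 3 of the 5 (Dlx1, Msx2 and Prrx1) the 250 bases before the start overlap annotated exons of the same gene and are not printed. The other two are shown because Msx1 was the gene below its primary level in every immortalized line, and Dlx2 the neighbour of Dlx1 that passed no test. Capitals mark TAAT, the core that homeodomains bind, on either strand (ATTA when read from the other strand, overlapping matches counted). The Msx1 window is chr5:37824586-37824835 and the Dlx2 window chr2:71546755-71547004, both on the minus strand and written 5′ to 3′.
Msx1: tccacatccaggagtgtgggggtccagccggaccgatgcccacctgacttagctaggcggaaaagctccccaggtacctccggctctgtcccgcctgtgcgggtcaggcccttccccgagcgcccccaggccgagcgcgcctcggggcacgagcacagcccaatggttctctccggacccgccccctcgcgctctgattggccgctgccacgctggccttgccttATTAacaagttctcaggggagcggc
Dlx2: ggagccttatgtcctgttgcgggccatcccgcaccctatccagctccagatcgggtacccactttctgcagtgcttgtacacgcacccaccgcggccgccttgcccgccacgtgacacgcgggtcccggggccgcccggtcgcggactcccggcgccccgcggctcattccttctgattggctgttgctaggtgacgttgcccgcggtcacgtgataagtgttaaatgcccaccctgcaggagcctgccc
The Msx1 window holds 1 match and 20 CG dinucleotides, and the Dlx2 window holds 0 matches and 24 CG dinucleotides. Of all 32851 windows of this length 54.9% hold at least 1 match, and 17.9% hold 20 or more CG dinucleotides, against a median of 6. The windows that are not printed hold 0 matches in Dlx1, 5 in Msx2 and 4 in Prrx1, and 9.62% of all windows hold 4 or more.

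The libraries held 35273408 to 100441756 counts, so 3 counts, used here as the floor of detection, correspond to at most 0.0842 CPM (counts scaled to 1e6 per library). Fibroblast markers summed to between 11300 and 28900 CPM in every library, with the highest group means in Col1a2, Col3a1 and Vim. Some less abundant markers varied widely between lines. Lum was 165 to 192 CPM in WT primary libraries and 0.0483 to 93.5 CPM in WT lines. Dcn was 124 to 132 and 0.661 to 455 CPM. With the Prkd3-/- label Thy1 was 453 to 811 CPM in primary libraries and 4.85 to 895 CPM in lines. The sum therefore does not show that each marker was kept in each line. The gene Prkd3 was counted at 69.2 to 93.7 CPM in WT libraries and at 33.6 to 61.0 CPM in those labelled Prkd3-/-, and a deletion within the gene cannot be seen in counts per gene. All 3 WT primary libraries held both Xist (43.8 to 55.9 CPM) and the Y-linked Ddx3y (51.6 to 63.7 CPM), and whether each is 1 embryo or a mixture cannot be told from these counts. If mixed, their SDs and the WT p-values would not cover the spread between embryos. WT primary libraries differed from each other by a median of 0.0467 to 0.0617 on the log2 scale, WT lines by 0.26 to 0.334 and Prkd3-/- lines by 0.338 to 0.687. Among the latter, line 13 stood apart, by 0.496 to 0.687 from the other three, which differed by 0.338 to 0.471. The primary library of Prkd3-/- clone 14 stood apart from the other two of its group, by 0.262 to 0.281 where those differed by 0.123. The 8 macrophage markers summed to 873 CPM there against 81.5 and 187 CPM in clones 13 and 15.

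In WT MEFs, the values of Msx1 and Alx1 in all 3 lines lay under the primary range, and those of Dlx1 above it. Among libraries labelled Prkd3-/-, Dlx1 was again higher in every line, and Alx4 was lower in every line. For all genes of the joint filter (21197), the share with every WT line higher was 13.3% and with every WT line lower 17.2%. The same shares for the Prkd3-/- label were 4.14% and 5.61%. The gene whose groups did not overlap in the same direction in both genotypes was Dlx1, a pattern that 1.35% of genes showed upward and 2.93% downward. A gene was called when edgeR's quasi-likelihood test gave a Benjamini-Hochberg adjusted p under 0.01 and a |log2FC| of at least 1. By that rule 1 of the 8 genes tested in WT MEFs was called, Alx1, where 1.82% of all 19836 tested genes were called, 0.0605% higher and 1.76% lower. With the Prkd3-/- label 0 of 9 were called, where 0.0% of all 20298 tested genes were called, although 1331 genes had an unadjusted p under 0.05 and DESeq2 called 190 genes (0.781%), none of them among the 9. Without line 13, which stood apart, the log2FC in that comparison was 0.50 for Dlx5, −0.077 for Dlx6, −0.059 for Alx1, −3.59 for Alx4 and −0.028 for Prrx1, and 0 of the 9 genes were called.

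**Figure D1:**
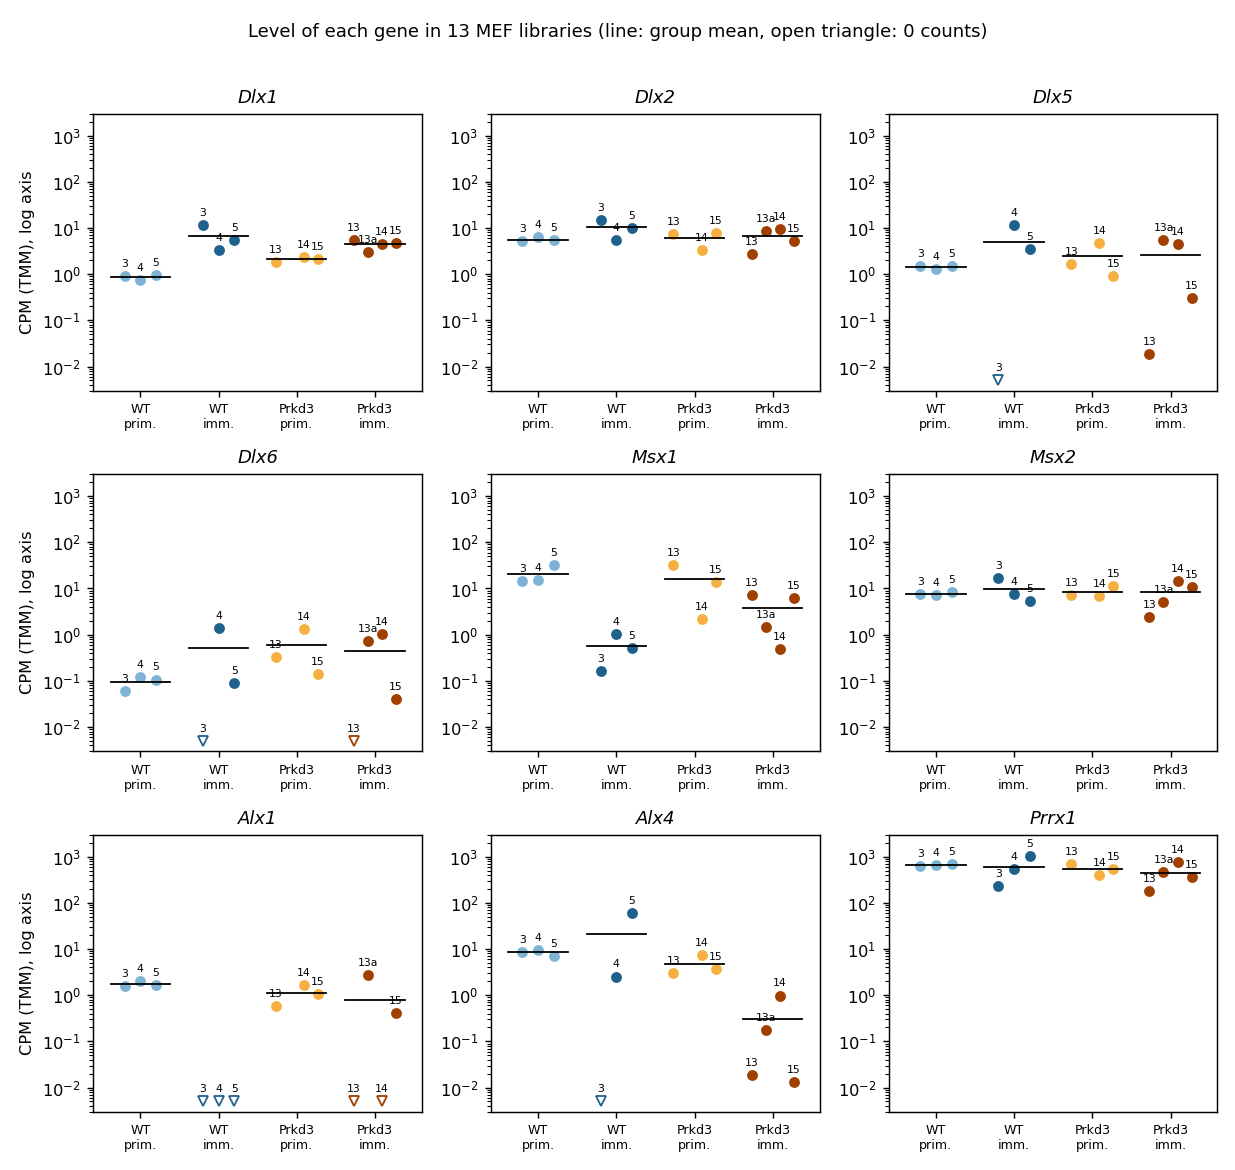
Level of the 9 genes in 13 libraries, as TMM-normalized CPM on a log axis (vertical), by group (horizontal: WT and Prkd3-/- label, primary and immortalized). Each point is 1 library, numbered by clone, each line is a group mean and open triangles are libraries with 0 counts. Dlx1 lies higher in every line, Alx1 is at 0 in all WT lines, and Dlx5, Dlx6, Alx1 and Alx4 spread over orders of magnitude between lines.

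Per kilobase of exon, Prrx1 had the highest level of the 9 genes in WT primary MEFs, at 59.9 CPM per kb. Msx1 followed at 6.66 CPM per kb, then Msx2 at 2.35, Dlx2 at 1.97 and Alx4 at 1.19 CPM per kb. Dlx5 (0.627 CPM per kb), Alx1 (0.301), Dlx1 (0.159) and Dlx6 (0.0405) were the least abundant, and Dlx6 rested on 4 to 11 counts in each WT primary library. In WT lines the order changed: Msx1 stood at 0.186 CPM per kb, below Dlx1 at 1.27 CPM per kb.

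Dlx1 was counted at 0.905, 0.729 and 0.947 CPM in primary WT clones 3, 4 and 5, and at 11.7, 3.3 and 5.58 CPM in the lines from these clones. In cultures labelled Prkd3-/- it was 1.87, 2.34 and 2.13 CPM in primary clones 13, 14 and 15, and 5.38, 3.03, 4.42 and 4.71 CPM in lines 13, 13a, 14 and 15. Every line exceeded every primary library of its genotype, and the WT primary libraries were the lowest of all 13. The log2FC was 2.99 ± 0.51 (SE) in WT MEFs (adjusted p = 0.0292 in edgeR's test) and 1.04 ± 0.31 with the Prkd3-/- label (adjusted p = 0.609), neither a call. Each line was also above the primary library of its own clone, by 4.53 to 12.9 times in WT and 1.62 to 2.88 times with the Prkd3-/- label. DESeq2 called Dlx1 in WT MEFs (adjusted p = 5.96e-08), where it called 3 of the 9 genes and 5.94% of all genes, and with a replicate block for the clone edgeR's adjusted p was 0.081. Its WT direction is not independent evidence here, since Dlx1, Msx1 and Alx1 are in the study's own list of changed genes from these 6 libraries. The paper also lists Dlx1 among the changed transcription factors shared with an earlier microarray study of MEF immortalization. The direction of Dlx1 in that study was not examined here.

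Dlx2, the neighbour of Dlx1, had 5.21, 6.28 and 5.36 CPM in WT primary MEFs and 15.2, 5.57 and 10.1 CPM in the lines. Among Prkd3-/- libraries it ranged from 3.3 to 7.6 CPM in primary MEFs and from 2.73 to 9.55 CPM in lines. The groups overlapped in both genotypes. The log2FC was 0.87 ± 0.36 (adjusted p = 0.264) and 0.10 ± 0.50 (adjusted p = 0.979). The antisense transcript Dlx1as, which shares exon bases with Dlx1, had 0.534 ± 0.148 CPM (SD, n = 3) in WT primary MEFs and 1.69 ± 0.968 CPM in WT lines (log2FC 1.66, adjusted p = 0.143). Over both genotypes in an additive fit Dlx1as had a log2FC of 1.27 ± 0.31 (adjusted p = 0.0434) and Dlx1 one of 1.93 ± 0.40 (adjusted p = 0.0242), where 0.698% of all genes were called and 0 of the 9 were. At an adjusted p under 0.05 Dlx1 alone of the 9 passed in that fit (2.56% of all genes), as it did at 0.01 with limma (1.59%) and in a fit of all libraries (0.741%), and DESeq2 called Dlx1 and Msx1 (3.27%). Leaving out any 1 of the 3 WT primary libraries moved the adjusted p of Dlx1 in that fit to between 0.0662 and 0.0741.

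Dlx5, a regulator of jaw, limb and bone formation, was counted at 1.47, 1.32 and 1.47 CPM in WT primary MEFs. In WT lines it was 0 CPM in line 3, 11.3 CPM in line 4 and 3.45 CPM in line 5, so the lines lay on both sides of the primary range. Primary libraries labelled Prkd3-/- had 1.66, 4.67 and 0.926 CPM in clones 13, 14 and 15, and the lines had 0.0191 CPM (13, a single count), 5.44 (13a), 4.58 (14) and 0.297 CPM (15). Lines 13 and 13a, from the same clone, thus differed from 1 count to 397 counts. The log2FC was 1.80 ± 1.55 in WT MEFs (adjusted p = 0.581) and 0.09 ± 1.41 with the Prkd3-/- label (adjusted p = 0.995).

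Dlx6, the partner of Dlx5, followed it at a lower level. It had 0.0613, 0.12 and 0.107 CPM in WT primary clones 3, 4 and 5, and 0, 1.42 and 0.0915 CPM in the lines. At this depth a loss of Dlx6 in WT line 3 was not detectable, since the floor of 3 counts is close to the primary level. Dlx6 in Prkd3-/- libraries was 0.334, 1.35 and 0.14 CPM in primary clones 13, 14 and 15, and 0, 0.712, 1.02 and 0.0405 CPM in lines 13, 13a, 14 and 15. Of the lines, WT line 4 and Prkd3-/- lines 13a and 14 had the highest values of both Dlx5 and Dlx6. WT line 3 and Prkd3-/- lines 13 and 15 had the lowest. WT line 5 lay between, with Dlx5 at 2.43 and Dlx6 at 0.952 times the WT primary mean. Across the 7 lines Pearson's r of log2 CPM was 0.93 and Spearman's rho 0.95, and r was 0.85 without the 2 lines farthest from the median of Dlx5. These are descriptions over lines that share 1 culture protocol and, for 13 and 13a, a clone. Over the same lines Pearson's r was 1.0 for Dlx6 with the non-coding Dlx6os1, and 0.4 for Dlx1 with Dlx2 (−0.04 without the 2 farthest lines). Dlx6os1 lies antisense to Dlx6, and its span (6820189 to 6871592) encloses that of Dlx6. Over the 6 primary libraries Pearson's r of Dlx5 with Dlx6 was 0.85 and Spearman's rho 0.43, and r was 0.63 without the 2 farthest. Dlx6 did not pass the filter on low counts in WT MEFs, and with the Prkd3-/- label its log2FC was −0.48 ± 1.41 (adjusted p = 0.963).

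**Figure D2:**
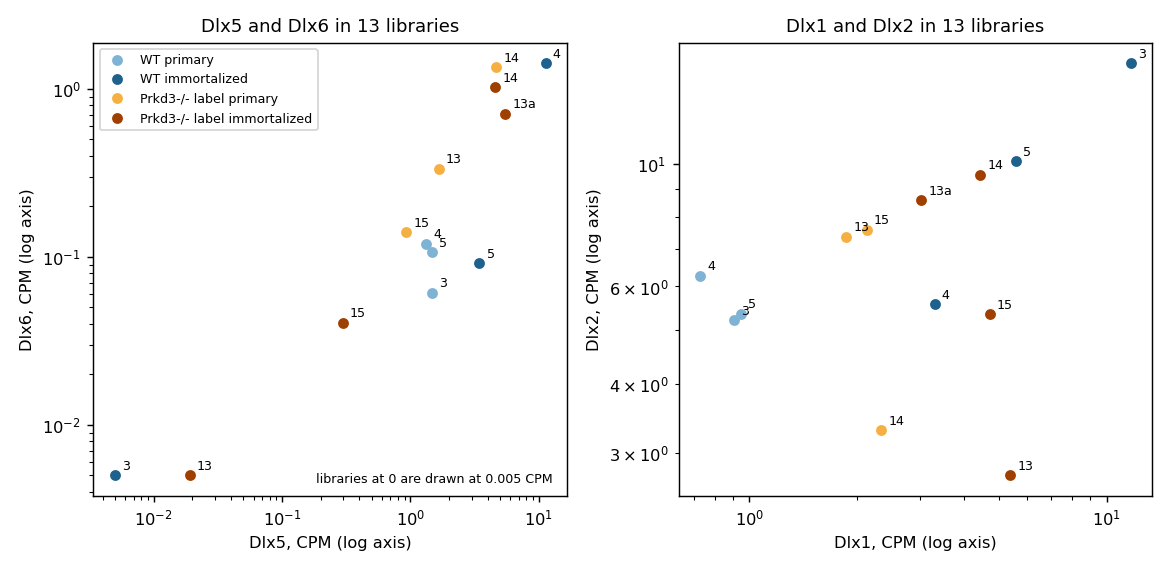
Dlx6 against Dlx5 (left) and Dlx2 against Dlx1 (right) as CPM on log axes, 1 point for each of 13 libraries, coloured by group and numbered by clone. Libraries with 0 counts are drawn at 0.005 CPM. Lines low in Dlx5 are low in Dlx6, while Dlx2 has no such order with Dlx1.

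Msx1 was below the level of its own primary clone in each of the 7 lines. WT primary clones 3, 4 and 5 had 14.6, 15.3 and 32.0 CPM, and the lines had 0.161, 1.05 and 0.518 CPM. The log2FC of −5.16 ± 0.77 had an adjusted p of 0.0198 in edgeR's test, short of the threshold of 0.01 but under 0.05, as for Dlx1 and Alx1 (4.38% of all genes), while DESeq2 called it (5.64e-14) and the fit with a replicate block gave 0.0725. In Prkd3-/- MEFs primary clones 13, 14 and 15 had 31.7, 2.2 and 13.7 CPM, and lines 13, 13a, 14 and 15 had 7.12, 1.48, 0.485 and 6.19 CPM. Here the groups overlapped, because the primary library of clone 14 lay below lines 13 and 15, and the log2FC was −2.07 ± 1.06 (adjusted p = 0.804). Each of the 7 lines was below the mean of its primary libraries (0.00781 to 0.449 times), and relative to the primary library of its own clone it stood at 0.0111 to 0.452 times. Without the primary library of clone 14 the log2FC was −2.59 (adjusted p = 0.998).

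Msx2, its paralog, did not share this pattern. WT primary MEFs had 7.51, 7.13 and 8.45 CPM and WT lines 16.6, 7.48 and 5.38 CPM, with a log2FC of 0.35 ± 0.42 (adjusted p = 0.7). Prkd3-/- primary MEFs ranged from 6.92 to 11.3 CPM and lines from 2.4 to 14.6 CPM, with a log2FC of −0.07 ± 0.59 (adjusted p = 0.991). The line values enclosed the primary values in both genotypes. Msx3, the third Msx gene, had at most 2 counts in any library.

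Alx1 fell in WT MEFs. It had 1.56, 1.99 and 1.64 CPM in primary clones 3, 4 and 5 (102, 183 and 92 counts) and 0 counts in each of the 3 lines. Against the floor of 3 counts per library this was at least 34.1-fold lower in the lines (edgeR's adjusted p = 0.00487, DESeq2's 2.54e-12). The call did not hold with a replicate block (adjusted p = 0.128), in 1 fit of all libraries (0.198), or without any 1 of the primary libraries of clones 3, 4 and 5 (0.0483, 0.0499 and 0.0503). Alx1 in Prkd3-/- MEFs was 0.576, 1.65 and 1.07 CPM in primary clones 13, 14 and 15. Lines 13 and 14 had 0 counts, line 15 had 0.418 CPM and line 13a had 2.75 CPM, above every primary library. The log2FC over these 7 libraries was −0.47 ± 1.67 (adjusted p = 0.969), and −2.95 without line 13a (adjusted p = 0.709).

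Alx4, which marks the front of the limb bud, was counted at 8.74, 9.31 and 7.2 CPM in WT primary MEFs. Line 3 had 0 counts, line 4 had 2.54 CPM and line 5 had 59.7 CPM, the highest value of Alx4 in any library. The WT log2FC was 1.31 ± 1.88 (adjusted p = 0.752) and turned to −2.73 without line 5. With the Prkd3-/- label primary clones 13, 14 and 15 had 3.08, 7.31 and 3.73 CPM, while lines 13, 13a, 14 and 15 had 0.0191, 0.178, 0.985 and 0.0135 CPM. All 4 lines lay below the primary range, and lines 13 and 15 held 1 count each. The log2FC of −3.97 ± 1.31 was no call (edgeR's adjusted p = 0.667, DESeq2's 0.0468).

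Prrx1, by far the most abundant of the 9 genes, had 635, 646 and 708 CPM in WT primary MEFs and 228, 552 and 1020 CPM in WT lines. The Prkd3-/- primary libraries had 687, 405 and 550 CPM and the lines 13, 13a, 14 and 15 had 181, 471, 772 and 366 CPM. The lowest values were those of Prkd3-/- line 13 and WT line 3, in which Dlx5 and Alx4 had at most 1 count. The groups overlapped in both genotypes, with a log2FC of −0.14 ± 0.51 (adjusted p = 0.907) and −0.29 ± 0.46 (adjusted p = 0.918). Its paralog Prrx2 had 118 ± 5.13 CPM in WT primary MEFs and 116 ± 34.1 CPM in WT lines (log2FC −0.02 ± 0.21, adjusted p = 0.964).

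**Figure D3:**
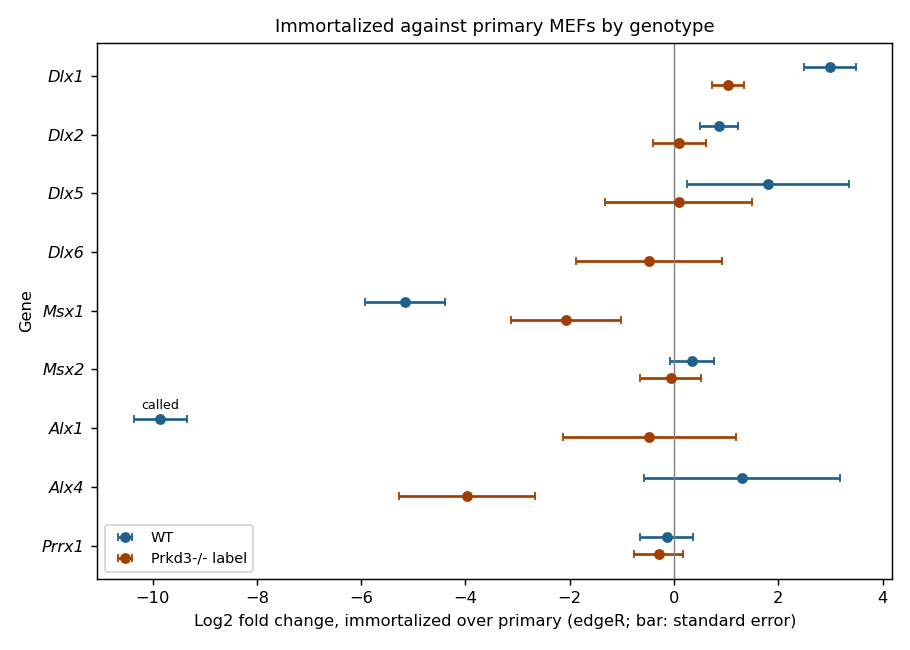
Log2 fold change of immortalized over primary MEFs (horizontal) for each gene (vertical), from edgeR's fit in WT (blue) and Prkd3-/- label (brown) libraries. Bars are standard errors, and the value of Alx1 in WT, where all lines are at 0 counts, depends on the prior count. Alx1 in WT is the only value marked as called, and Dlx6 in WT was not tested.

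The subset of genes at a low level differed between lines. A gene was counted as low in a line when its level, set to at least 3 counts, was under 0.25 of the primary mean of its genotype, and as high when it was over 4 times that mean. WT line 3 was low in Dlx5, Msx1, Alx1 and Alx4 and high in Dlx1. WT lines 4 and 5 were both low in Msx1 and Alx1, and line 4 was high in Dlx5 and Dlx6 and line 5 in Dlx1 and Alx4. Of the lines labelled Prkd3-/-, 13 was low in Dlx5, Dlx6, Alx1 and Alx4, 13a in Msx1 and Alx4, 14 in Msx1, Alx1 and Alx4, and 15 in Dlx5, Dlx6 and Alx4, and 0 genes were high. Across all genes of the joint filter, 3.26% to 12.4% were low and 0.831% to 3.36% high in a line. Msx1, Alx1 and Alx4 were each low in 5 of 7 lines, Dlx5 in 3 and Dlx6 in 2, while Dlx1, Dlx2, Msx2 and Prrx1 were low in 0. In WT line 5 Alx4 stood at 7.09 times the primary mean.

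**Figure D4:**
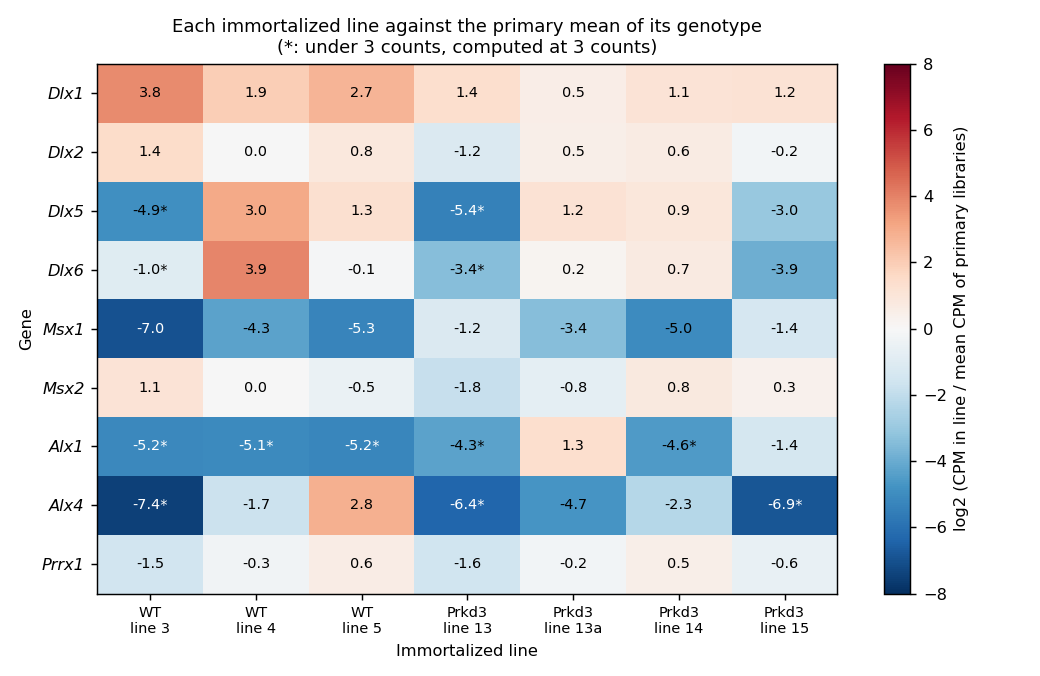
Log2 ratio of each immortalized line (columns) to the primary mean of its genotype for the 9 genes (rows), blue for lower and red for higher. Stars mark lines with under 3 counts, for which 3 counts were used. Dlx1 is red in all 7 lines, Msx1 blue in all 7, and Alx4 blue in 6 and red in WT line 5.

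The spread between libraries within a genotype was larger among the lines than among the primary libraries, of which the WT ones may not be single embryos. The SD of log2 CPM had a median of 0.492 over the 9 genes in primary MEFs and 1.64 in lines, against 0.227 and 0.526 over all 21197 genes. Alx4 went from 0.482 to 4.27 and Dlx5 from 0.832 to 4.22, both above 99.8% of all genes in the lines. Dlx6 reached 3.11 (above 98.4% of genes) and Alx1 2.91 (97.8%). Dlx1 had the smallest spread of the 9 in lines, 0.639, and Msx1 was almost as spread in primary MEFs (1.46) as in lines (1.64). Of these genes Dlx5, Dlx6, Alx1 and Alx4 each had lines with 0 or 1 count, where the log2 value depends on the added count of 1, and the part of low counts in the spread was not tested.

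**Figure D5:**
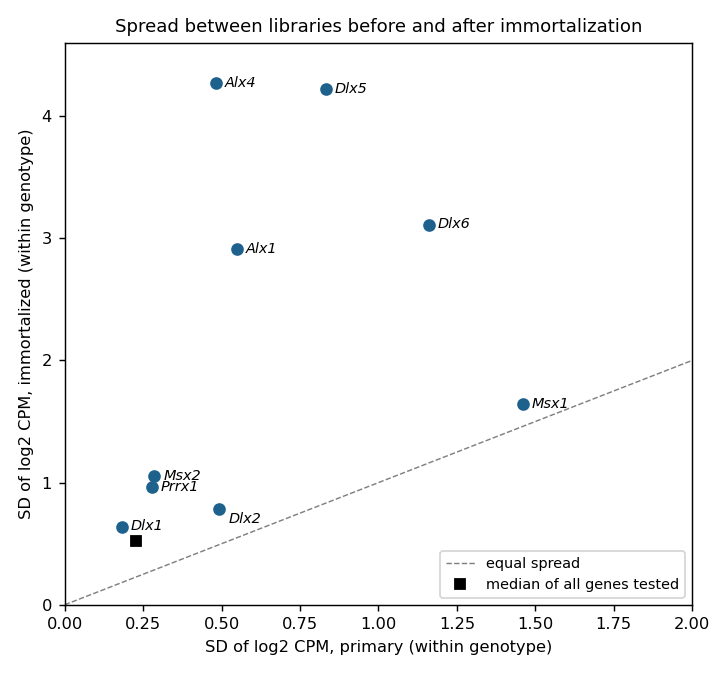
SD of log2 CPM between libraries within a genotype, in primary MEFs (horizontal) and immortalized lines (vertical), 1 point per gene. The square is the median of all genes tested and the dashed line marks equal spread. All 9 genes lie above the dashed line, Alx4 and Dlx5 highest, at 4.27 and 4.22.

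Whether immortalization changed a gene differently in WT and Prkd3-/- MEFs was asked with an interaction term over all 13 libraries, at an adjusted p under 0.05. None of the 9 genes passed in edgeR's test (adjusted p = 1 for each), where 0.0% of all 21197 genes passed, 841 genes had an unadjusted p under 0.05 and DESeq2 called 37 (0.123%). The smallest unadjusted value among the 9 was 0.00409 for Dlx1 (difference of log2FC −1.94 ± 0.54), from a primary level that was already higher with the Prkd3-/- label. In primary MEFs Dlx1 was 0.86 ± 0.116 CPM (SD, n = 3) in WT and 2.11 ± 0.237 CPM (n = 3) with the label, with a log2FC of 1.32 ± 0.20 (edgeR's adjusted p = 0.0205). Dlx1 and Dlx6 were higher in every primary library with the label than in every WT one, a pattern shown by 15.3% of all genes, and 0 were lower in every one (18.4%). In that comparison 0 of the 9 genes were called, where 0.765% of all 20403 genes were, and Dlx1 passed at an adjusted p under 0.05 (2.98% of genes) and in DESeq2 (3.71%). Without the primary library of Prkd3-/- clone 14, Dlx1 (adjusted p = 0.00423) and Alx4 (log2FC −1.32, adjusted p = 0.00093) were called, with 1456 genes in all. Among immortalized lines the label made no call among the 8 genes tested, where 0.0406% of all 19683 genes were called, and 0 of the 9 had groups that did not overlap (4.44% of all genes higher and 4.16% lower). Label and deposited table are the same split of the libraries and cannot be told apart. Xist followed this split too, at 43.8 to 170 CPM in WT libraries and at most 0.156 CPM with the label. Ddx3y did not follow it. It was 47.4 to 154 CPM with the label, 51.6 to 63.7 CPM in WT primary libraries and 0.209 to 65.1 CPM in WT lines. Because Xist follows the label, a difference by sex cannot be told apart from one by label either.

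Markers of other cell types moved with the same comparisons. The 8 macrophage markers summed to 581 to 607 CPM in WT primary libraries and 29.2 to 87.6 CPM in WT lines, and 5 of the 8 were called lower. The 5 endothelial markers summed to 11.6 to 16.4 CPM and 0.371 to 1.97 CPM, and the 6 muscle markers to 22.6 to 26.2 CPM and 0.728 to 7.14 CPM. Of the muscle sums, Des alone gave 22.4 to 25.8 CPM and 0.728 to 7.09 CPM. Myod1, Myf5, Myog and Pax7 were at 0 in all WT lines. They had at most 2, 1, 7 and 3 counts in a WT primary library, so a fall in them rests on few counts. In bulk RNA, fewer cells of a type and less RNA per cell cannot be told apart. The 10 neural markers summed to 25.7 to 30.0 CPM in WT primary libraries and 36.0 to 105 CPM in WT lines, of which Tubb3 gave 18.0 to 20.4 and 28.1 to 56.5 CPM, while the defining GABAergic marker Gad1 was at most 0.0313 CPM in any library and Gad2 at most 0.148 CPM. Nkx2-1 was 0 in every library but 1. The 5 chondrocyte markers ranged from 180 to 235 CPM in WT primary libraries and from 6.66 to 678 CPM in WT lines, of which Col2a1 gave 162 to 210 and 6.1 to 676 CPM. Of the 4 tested, 0 were called, and 3 were lower in WT lines at an edgeR adjusted p under 0.05. These were Acan (7.41 to 0.192 CPM), Comp (14.7 to 1.31 CPM) and Col9a1 (0.224 to 0.00508 CPM), as means. Among libraries labelled Prkd3-/-, the primary library of clone 14, with the highest Dlx5, Dlx6, Alx1 and Alx4 and the lowest Msx1 of its group, had the highest macrophage (873 CPM), muscle (28.0 CPM) and neural (144 CPM) sums. Line 13a, the line with the most Alx1 (2.75 CPM), had 150 CPM of macrophage markers against 10.1 to 17.7 CPM in lines 13, 14 and 15. Line 15, which also held Alx1 (0.418 CPM), had 15.1 CPM of these markers. The part of these cells in the values of the homeobox genes was not tested.

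Of 35 other transcription factors of facial and limb mesenchyme, 31 were tested in WT MEFs, of which 0 were called higher and 2 lower, with a median log2FC of −0.06 against 0.04 for all genes. Barx1, a factor of tooth and stomach mesenchyme, fell from 1.17 ± 0.187 to 0.0105 ± 0.00906 CPM (log2FC −6.55 ± 0.55, edgeR's adjusted p = 0.00311), and Meox2, a factor of somite and limb muscle, fell from 9.31 ± 1.31 to 0.0107 ± 0.00933 CPM (log2FC −9.53 ± 0.49, adjusted p = 0.000587). At an adjusted p under 0.05, 2 were higher and 7 lower. With the Prkd3-/- label 0 of 30 were called, and over both genotypes Barx1 alone was called (log2FC −6.01 ± 0.61, adjusted p = 0.000591). Of 25 BMP pathway genes 24 were tested in WT MEFs and 0 were called, with a median log2FC of −0.24. The ligand Bmp2, named after its values were seen because it varied with Msx1, had 6.18 ± 1.79 CPM in WT primary MEFs and 0.0773 ± 0.097 CPM in WT lines (log2FC −6.31 ± 0.97, adjusted p = 0.0218), and 3.41 ± 2.69 against 2.94 ± 2.15 CPM with the Prkd3-/- label. Pearson's r of Bmp2 with Msx1 was 0.93 over 6 primary libraries and 0.9 over 7 lines, and 0.65 and 0.75 without the 2 libraries farthest from the median of Msx1. For Bmp4, another inducer of Msx genes, r with Msx1 was 0.55 over the primary libraries and −0.09 over the lines, and −0.31 and −0.98 without the 2 farthest, so its sign or size rested on those libraries.

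Of 8 endothelin and FGF pathway genes 7 were tested in WT MEFs, and 1, Mef2c, a factor downstream of endothelin in the face, fell from 35.3 ± 1.59 to 7.09 ± 1.92 CPM (log2FC −2.31 ± 0.22, edgeR's adjusted p = 0.00502). Mef2c is also made by macrophages. Among 10 bone and matrix genes described as targets of these factors, 7 were tested and 0 were called in either genotype, with median log2FCs of 0.08 and 0.06. Dlx3 and Dlx4, the remaining Dlx pair, had at most 36 and 9 counts in a library and were not tested within either genotype. Between primary libraries, the BMP list held 2 calls, Bmp4 (log2FC −1.25 ± 0.14, adjusted p = 0.00948) and Bmp5 (−2.40 ± 0.18, adjusted p = 0.00223), both lower with the Prkd3-/- label than in WT. Of the 9 fibroblast markers 1, Pdgfrb, was called in that comparison, also lower, and their median log2FC was −1.16.

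The genes most like each member over the 13 libraries, by Pearson's r of log2 CPM, were Dlx1as (0.937) and Cux1 (0.902) for Dlx1 and Htr7 (0.957) and Hoxd13 (0.952) for Msx1. For Alx1 they were Tfpi2 (0.982) and Lrrtm1 (0.971), and for Alx4 Slc12a5 (0.943) and Gm48159 (0.93). Dlx2 was nearest to Nacc2 (0.895) and Ccdc148 (0.894), Dlx5 to Idh1 (0.945) and Gm20444 (0.941), Dlx6 to 2310010J17Rik (0.929) and Znf41-ps (0.895), Msx2 to Mir1966 (0.889) and Gm15764 (0.874), and Prrx1 to Cyp2f2 (0.939) and Pros1 (0.932). These are the top 2 of all tested genes for each, over libraries that share states and clones, and 3 of the 18 genes were also chosen by Spearman's rho.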

How the data were processed

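Poly-A RNA of 13 MEF cultures was sequenced in pairs, and the authors aligned the reads with STAR 2.7.10a to mm10 (Ensembl GRCm38, release 102). The deposited values are raw counts per gene from featureCounts (Subread 2.0.6), in 1 table for WT and 1 for Prkd3-/- libraries, with 55487 genes each, and 0 per-sample columns were left unused. The header of the WT table records paired counting, both ends mapped, a pair counted for every gene it overlaps, and no strand option. The counting options of the Prkd3-/- table are not given in the sources used here, and a difference between the tables would move with genotype. Totals ran from 55436367 to 90654323 counts in WT and from 35273408 to 100441756 in Prkd3-/- libraries. Symbols were matched for 55141 gene IDs.

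CPM were computed from the counts with TMM factors over all 13 libraries. Immortalized and primary MEFs were compared within each genotype, in an additive fit of both, and by an interaction, and the genotypes within each state, with edgeR 4.0.16 (quasi-likelihood, robust, filterByExpr) in R 4.3.3. P-values were adjusted over all genes tested by the Benjamini-Hochberg method, and SE is |log2FC| over the square root of F. The alternatives were DESeq2 1.42.0, limma 3.58.1 (voom with group weights), other normalization, filter and threshold, a replicate block, a fit of all libraries, lines 13 and 13a summed, and each library left out. The fits were tested on simulated data.

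The members and gene lists were chosen with earlier results of these data known. Named beside the 9 genes are their family members (1 is not reported here), genes of the other lists past the threshold within a genotype, markers whose values stand beside a result, and for each member the pair of genes with the highest Pearson's r over 13 libraries. Clone numbers in the labels pair primary cultures with the lines derived from them, and the study's methods name 3 embryos for the WT cultures. Deviations from group means correlated by −0.039 to 0.019 within WT pairs and by −0.283 to 0.142 within Prkd3-/- pairs. The 3 WT primary libraries differed by more than sampling noise (chi-square per degree of freedom 7.66 to 20.9), and the Prkd3-/- ones by 83.7 to 719. Separate cultures of 1 pool can also exceed sampling noise, so these values do not show that the libraries are separate embryos. Each was counted as a sample because the labels give each its own clone number. With 1 culture per library, p-values measure the spread between cultures or lines. Per-sample floors of 3 counts cover counting error only.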

Additional observations from a re-analysis of the deposited data

Results flagged for a closer look

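In the 4 immortalized lines labelled Prkd3-/-, 2 values lay far from the others. Alx1 was at 2.75 CPM in line 13a and at 0.0 to 0.418 CPM in the other three, a gap of 0.848 of the whole range. Alx4 was at 0.985 CPM in line 14 and at 0.0135 to 0.178 CPM in the others, a gap of 0.831 of the range. Both gaps exceed Dixon's 95% critical value for 4 samples. The 9 genes were examined in this group, and chance marks about 1 in 20 if the values are independent and normally distributed. The gaps were taken on CPM, not on a log scale, and some of these values rest on 0 or 1 count. Lines 13 and 13a also share a clone. The rate may therefore not hold here, and no conclusion is drawn from the flags.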

How the results depend on the processing

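Among calls in WT MEFs (361 genes, 1 of the 8 homeobox genes tested), an adjusted p under 0.05 gave 868 genes and 3 of the homeobox genes, DESeq2 1361 and 3, limma 198 genes, a replicate block for the clone 0 and 0, and 1 fit of all libraries 0 and 0. Leaving out 1 library gave 48 to 743 genes and 0 to 1 homeobox genes, with 48, 50 and 66 genes without WT primary 3, 4 and 5. With the Prkd3-/- label (0 genes), DESeq2 gave 190 and the fit of all libraries 1. Over both genotypes (148 genes, 0 homeobox genes), an adjusted p under 0.05 gave 543 and 1, DESeq2 859 and 2, limma 338 and 1, the replicate block 18 genes, the fit of all libraries 1 homeobox gene, and leaving out 1 library 31 to 408 genes, the latter without line 13a. For the interaction (0 genes), DESeq2 gave 37 and leaving out 1 library 0 to 2, the latter without line 14. Between primary libraries (156 genes, 0 homeobox genes), an adjusted p under 0.05 gave 607 and 1, DESeq2 836 and 1, no filter 335 genes, and leaving out 1 library 2 to 1456 genes and 0 to 2 homeobox genes. Between lines (8 genes), an adjusted p under 0.05 gave 13, DESeq2 178, limma 5 and leaving out 1 library 0 to 10. The cause of these differences was not tested. In the paired fits the replicate block changed no call beyond those given here.

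Direction turned in 13 fits of single genes, none of them called. With limma, log2FC in WT MEFs was −1.07 for Dlx5 and −2.93 for Alx4, with the Prkd3-/- label −1.57 for Dlx5, over both genotypes −1.27 for Dlx5 and −0.90 for Dlx6, between primary libraries −0.10 for Dlx2, and between lines 0.16 for Dlx5 and 0.49 for Dlx6. With the replicate block it was −1.81 for Alx4 in WT MEFs, −0.20 for Dlx5 with the label, −0.078 for Dlx6 over both genotypes and 0.016 for Prrx1 in the interaction. With lines 13 and 13a summed Msx2 was 0.18. Leaving out 1 library turned 35 further fits. Log2FC then ran in WT MEFs from −2.73 to 1.89 for Alx4, −0.26 to 0.65 for Msx2 and −0.76 to 0.25 for Prrx1, and with the label from −0.20 to 0.36 for Dlx2, −0.56 to 1.00 for Dlx5, −1.28 to 0.87 for Dlx6 and −0.51 to 0.24 for Msx2. Over both genotypes it ran from −0.66 to 1.60 for Dlx6 and −0.15 to 0.30 for Msx2, and in the interaction from −3.63 to 0.55 for Dlx6, −0.84 to 0.17 for Msx2 and −0.56 to 0.47 for Prrx1. Between primary libraries it ran from −0.071 to 0.42 for Dlx2, −0.066 to 1.17 for Dlx5, −1.37 to 0.18 for Msx1 and −0.10 to 0.28 for Msx2, and between lines from −1.58 to 0.58 for Dlx5, −0.76 to 3.21 for Dlx6, −0.69 to 0.35 for Msx2 and −0.82 to 0.19 for Prrx1. Dlx1 and Alx1 kept their direction in every fit with a value. Dlx6 in WT MEFs and Alx1 between lines were under the filter, and counts of 0 to 3 limit Dlx5, Dlx6, Alx1 and Alx4 in single lines.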
